A study of Mus musculus with 6 samples.

Results

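The 44 genes described here are those of an S phase list and a mitosis list, 2 sets of genes that cells switch on as they copy and then divide their chromosomes. They were given as fixed symbols and looked up in the gene lists of the count matrices, which hold 26251 genes in all, and all 44 were listed in each of the 6 libraries. The S phase list holds 19 genes, and the mitosis list holds 25 genes. Gonads were taken from mouse embryos at embryonic stage E15.5 and studied by single cell mRNA sequencing with 2 libraries per group, which the study describes as biological replicates. The groups were control XY (fetal testis, *Amh*+/+; *Inhbb*+/+), dKO XY (fetal XY gonad, *Amh*-/-; *Inhbb*-/-) and control XX (fetal ovary, *Amh*+/+; *Inhbb*+/+). *Amh* encodes anti-Mullerian hormone and *Inhbb* the subunit of activin B. Both genes were lost in the whole embryo and not in one cell type, and all embryos were on a C57BL/6 background. The gonads of one animal were pooled, dissociated, frozen until the genotype was known and thawed before capture, so every value below comes from cells that survived freezing. P-values measure the spread between libraries only. For shares of cells, the estimate of that spread was drawn in part from all cell types together. An exact permutation test of 2 libraries against 2 could not give a two-sided p under 0.333.

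In dividing cells, the genes of DNA replication are transcribed as S phase begins, and those of the spindle and of chromosome segregation later, towards mitosis. The 6 subunits of the MCM helicase, *Mcm2* to *Mcm7*, unwind DNA at replication origins, where *Cdc6* loads them and *Cdc45* and *Gins2* start them. *Pcna* and its partner *Pclaf* hold and regulate the DNA polymerases at the fork, *Tyms*, *Rrm1* and *Rrm2* supply nucleotides, *Ung* removes uracil from DNA, *Slbp* binds histone mRNA, and *Uhrf1*, *Hells* and *Cdca7* act on DNA methylation and chromatin. On the mitosis list, *Cdk1* with *Ccna2*, *Ccnb1* and *Ccnb2* drives entry into mitosis, *Plk1*, *Aurka*, *Aurkb*, *Bub1*, *Bub1b* and *Ttk* are mitotic and checkpoint kinases, and *Cdc20* and *Ube2c* serve the anaphase-promoting complex. *Cenpe*, *Kif11* and *Kif23* are spindle motors, *Tpx2*, *Nusap1*, *Prc1*, *Aspm* and *Hmmr* organise the spindle, *Top2a* untangles DNA, *Cenpf* and *Birc5* act at the centromere, *Mki67* coats mitotic chromosomes and *Mxd3* encodes a transcription factor. In the fetal gonad, Sertoli cells of the testis go on dividing, while pre-granulosa cells of the ovary largely leave the cycle and most fetal Leydig cells do not divide. Germ cells of the fetal testis enter mitotic arrest, and those of the fetal ovary enter meiosis, which has its own round of DNA replication.

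E2F motifs were more common in promoters of the S phase list and CHR motifs in those of the mitosis list, while CCAAT boxes were common in both. Promoter windows from RefSeq (GRCm38.p6, 250 bases before to 50 bases after each gene's start) were found for 39 of the 44 members, 17 on the S phase list and 22 on the mitosis list, but not for *Mcm4*, *Gins2*, *Tpx2*, *Ccna2* and *Aurkb*, and 3 members had 2 windows, of which either could hold a motif. An E2F motif (TTTCCCGC, TTTGGCGC, TTTCGCGC or TTTGCCGC, either strand) was in 9 of 17 S phase windows (52.9%), in 1 of 22 mitosis windows (4.55%) and in 2.60% of the windows of all 27025 genes listed. The CHR motif (cell cycle genes homology region, TTTGAA or TTCGAA, either strand) was in 17 of 22 mitosis windows (77.3%), in 3 of 17 S phase windows (17.6%) and in 21.7% of all genes. A CCAAT box (CCAAT, either strand) was in 19 of 22 mitosis windows (86.4%), 12 of 17 S phase windows (70.6%) and 41.1% of all genes. CHR and CCAAT box together were in 77.3% of the mitosis windows against 8.61% of all genes. These matches are a description of the letters in these windows, and a window without a match says nothing of the factor. The stretches shown run from 100 bases to 1 base before the start of the members with most matches there: *Mcm6* (chr1:128359706-128359805 on the minus strand) and *Cdca7* (chr2:72476119-72476218 on the plus strand) for E2F, and *Top2a* (chr11:99024190-99024289 on the minus strand), *Cdk1* (chr10:69352913-69353012 on the minus strand) and *Ube2c* (chr2:164769829-164769928 on the plus strand) for CHR and CCAAT box. Capitals mark E2F letters in the S phase genes and CHR and CCAAT letters in the mitosis genes.
Mcm6: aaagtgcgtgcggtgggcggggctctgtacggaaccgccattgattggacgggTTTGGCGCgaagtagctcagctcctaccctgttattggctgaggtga
Cdca7: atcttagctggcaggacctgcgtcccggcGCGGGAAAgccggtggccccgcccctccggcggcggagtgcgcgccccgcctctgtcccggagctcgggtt
Top2a: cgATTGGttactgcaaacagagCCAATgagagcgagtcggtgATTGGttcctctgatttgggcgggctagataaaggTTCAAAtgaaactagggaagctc
Cdk1: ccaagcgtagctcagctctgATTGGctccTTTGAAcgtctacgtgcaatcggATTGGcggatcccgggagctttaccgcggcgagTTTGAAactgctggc
Ube2c: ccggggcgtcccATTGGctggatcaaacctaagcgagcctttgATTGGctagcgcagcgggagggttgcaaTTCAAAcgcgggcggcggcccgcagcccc
Each of the 3 mitosis promoters holds at least 1 CHR match and at least 2 CCAAT matches within 100 bases of the start.

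The libraries held between 152972655 and 296488697 UMIs (unique molecular identifiers, 1 per captured mRNA molecule), and 39350 of 68064 barcodes passed the filter of the study. Between 4781 and 8569 cells per library passed, with a median of 18415 to 27124 UMIs per cell, and pairs of libraries shared 4 to 25 cell barcodes. The dKO XY libraries stood apart in quality, with 24.4% and 28.3% of their barcodes at 25% or more mitochondrial UMIs against 2.22% to 9.35% in the 4 control libraries. In supporting cells, *Amh* was at 17.6 and 15.4 CPM in dKO XY against 2023 and 1875 CPM in control XY, and *Inhbb* at 40.6 and 49.7 CPM against 160.4 and 183 CPM. CPM are the UMIs of a gene in the summed cells of one type and library, scaled to 1000000 UMIs in all. Clusters were named from marker lists. The 87 genes of the cell cycle that were among the 3000 variable genes were kept out of the genes that defined clusters. In supporting cells, the 10 Sertoli markers summed to 8383 and 7437 CPM in control XY against 447 and 492 CPM in control XX, and the 8 granulosa markers to 854 and 819 and 4125 and 3737 CPM. Leydig cells were called in the XY libraries only, and control XY held 15 and 7 germ cells, too few for most tests.

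Each cell was thinned to 5000 UMIs, and a cell was counted as cycling when it held at least 5 UMIs of the S phase list or at least 3 of the mitosis list. No cell had to be left out for lack of depth. The share of such cells was lowest in supporting cells of control XX, at 20.9% and 29.96% in the 2 libraries, and in Leydig cells of control XY, at 21.02% and 20%. Among control XX supporting cells, those of the granulosa-like subcluster were at 18.9% and 19.4%, and these cells had a median of 25296 and 22212 UMIs before thinning. They serve as the low reference for the cut. Most of those past it passed by the S phase list alone, 16.3% and 16.7% of the granulosa-like cells. Only 2.63% and 2.75% were past the mitosis cut, against 14.6% and 12.6% of control XY Leydig cells. At the other end, germ cells were at 99.1% to 100% in every library and all 86 erythroid cells were past the cut, whatever the group. Control XX germ cells, which by this stage are in meiosis, were past it too, so the count marks cells that hold RNA of these genes and is no measure of division. Without thinning, between 73.1% and 100% of the cells of each type and library were past the same cut, and these values enter only as an alternative setting.

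**Figure D1:**
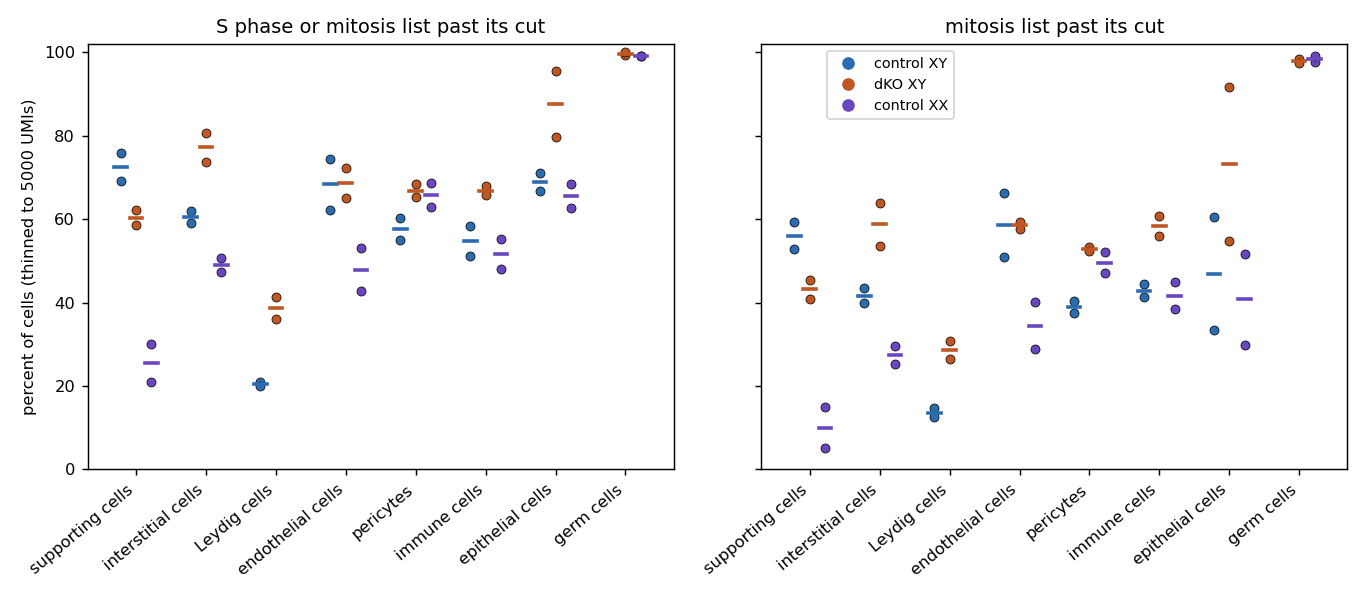
Percent of cells past the cut of either list (left) or of the mitosis list alone (right), after thinning to 5000 UMIs per cell, for 8 cell types; each point is 1 library and each bar the mean of the 2 libraries of a group. Supporting cells of control XX lie at 20.9% and 29.96% on the left and Leydig cells of control XY at 21.02% and 20%, the lowest of the groups shown.

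In control XY, Leydig cells had the lowest CPM of 7 cell types for all 19 S phase members and all 25 mitosis members, and interstitial cells had the highest for 8 S phase and 15 mitosis members. In control XX, supporting cells were lowest of 7 types for 14 S phase and all 25 mitosis members, and pericytes were highest for 10 and 18. In dKO XY, Leydig cells were lowest of 8 types for 16 S phase and 24 mitosis members, and germ cells were highest for 11 and 12. *Top2a*, for example, measured 91.9 and 80.04 CPM in Leydig cells, 275 and 393 CPM in supporting cells and 405 and 427 CPM in the interstitium of control XY. The libraries of these 3 cell types did not overlap for this gene, and Leydig cells were the lowest. *Hells*, a chromatin remodeller, stood apart in germ cells, with 1014 and 1065 CPM in control XX against 584 and 758 CPM in dKO XY, against 80.3 and 70.1 CPM in interstitial cells of control XX. In cells summed over a type, fewer cycling cells and less RNA of these genes per cell cannot be told apart.

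**Figure D2:**
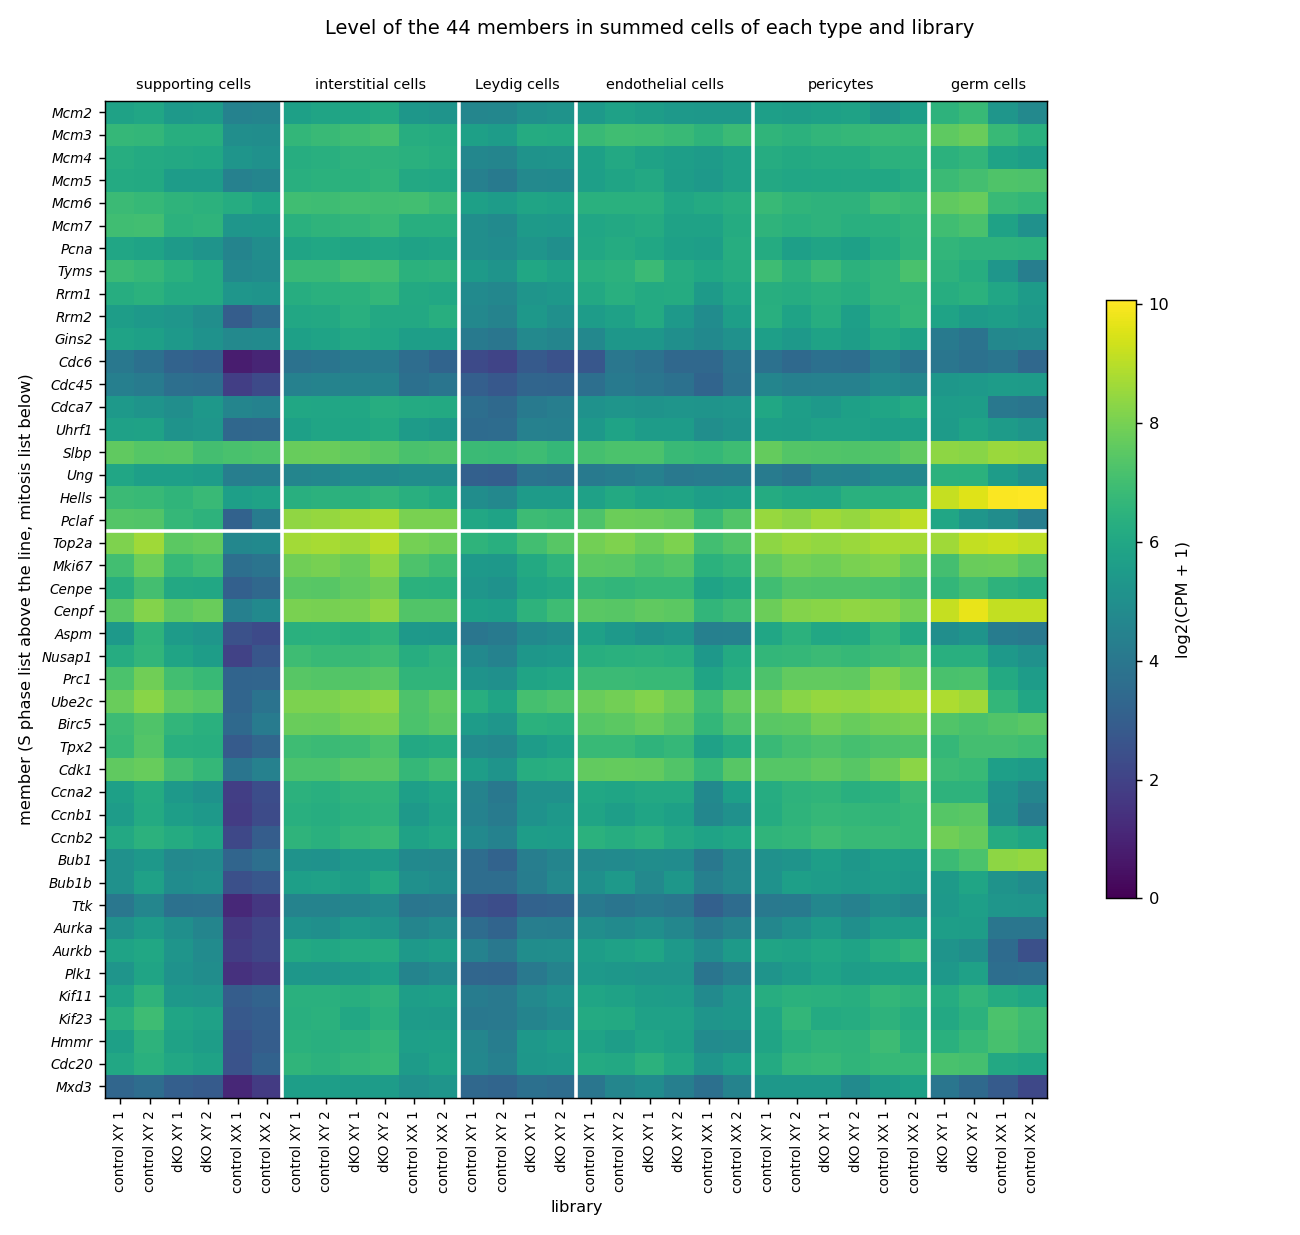
Level of each member (rows) in the summed cells of 6 cell types in each library (columns), as log2(CPM + 1), with the S phase list above the white line and the mitosis list below. The darkest columns are control XX supporting cells, where *Plk1* was at 1.74 and 2.17 CPM, and the brightest cells of the map are *Hells* and *Cenpf* in germ cells.

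Supporting cells of control XX were compared with those of control XY, the pre-granulosa cells of the ovary with the Sertoli cells of the testis. Of the 44 members, 43 were lower in control XX and none was higher, 18 of 19 on the S phase list and all 25 on the mitosis list, where 23.8% of all 15984 genes tested were called lower and 25.3% higher. Calls throughout are at an adjusted p under 0.05 (edgeR quasi-likelihood test, Benjamini-Hochberg over all genes tested). The median log2 fold change was −1.60 for the S phase list and −3.87 for the mitosis list, against 0.04 for all genes tested. *Cdc6*, which loads the helicase, measured 15.3 and 12.2 CPM in control XY against 0.757 and 1.04 CPM in control XX (log2 fold change −4.03, SE 0.243, adjusted p = 4.86e-07, edgeR quasi-likelihood test). *Pclaf* was at 163 and 158 against 8.03 and 17.6 CPM (log2 fold change −3.73, SE 0.296, adjusted p = 3.13e-06, edgeR quasi-likelihood test). No library of control XX reached the level of a control XY library for either gene. The 6 *Mcm* genes fell less, with log2 fold changes of −1.82 (*Mcm3*) to −0.77 (*Mcm6*), as did *Cdca7* (−0.88). *Slbp*, whose protein binds histone mRNA, was the exception, at 192 and 171 CPM in control XY against 143 and 149.8 CPM in control XX (log2 fold change −0.36, SE 0.146, adjusted p = 0.0632, edgeR quasi-likelihood test).

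Among the mitosis members, *Plk1*, a kinase of spindle assembly and mitotic exit, measured 36.6 and 57.1 CPM in control XY against 1.74 and 2.17 CPM in control XX supporting cells (log2 fold change −4.67, SE 0.232, adjusted p = 1.44e-07, edgeR quasi-likelihood test). *Ube2c*, which tags mitotic proteins for breakdown, was at 218 and 308 against 8.65 and 13.2 CPM (log2 fold change −4.66, SE 0.235, adjusted p = 1.62e-07, edgeR quasi-likelihood test), and *Prc1*, a spindle midzone protein, at 146 and 234 against 8.54 and 8.68 CPM (log2 fold change −4.52). The 4 genes of *Cdk1* and the cyclins had log2 fold changes of −4.30 to −3.60, and the 8 spindle and kinesin genes of −4.52 to −3.38. The smallest falls were those of the checkpoint kinase *Bub1*, at 33.2 and 39.7 against 8.69 and 11.9 CPM (log2 fold change −1.89), and of *Mxd3* (−2.63). Other genes of the cycle, not members, were lower as well: 32 of 36 other S phase genes were called lower and 1 higher, and 45 of 46 tested mitosis genes were lower, *Mcm10* (−3.79) and *Cdca2* (−4.84) among them.

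The share of cycling supporting cells was 72.5 ± 4.69% in control XY (SD, n = 2) and 25.4 ± 6.43% in control XX (odds ratio 0.127, adjusted p = 0.00171, limma on log odds). By the mitosis list alone it was 52.9% and 59.2% in control XY against 5.06% and 14.9% in control XX. Cells with 15 or more UMIs of the mitosis list after thinning were 26.6% and 32.3% of control XY and 0.366% and 1.60% of control XX supporting cells. In a setting added for all supporting cells after seeing the data, cells with high *Sycp3* (a germ cell gene) or *Tcf21* (an interstitial gene) were left out. The limit was a level of 1 for either gene, as the natural log of 1 plus UMIs per 10000, so cells with a few such UMIs could stay. The share was then 18.3% and 19.5% in control XX against 69.8% and 77.01% in control XY. The cells so left out of control XX, 268 and 271 in number, were 47.4% and 65.3% cycling, and the 2 control XX libraries lay closer together without them. Among markers of other cells, the interstitial list summed to 957 and 1066 CPM in control XY against 477 and 557 CPM in control XX supporting cells. The pericyte list was at 52.4 and 64.8 against 13.1 and 16.3 CPM and the Leydig list at 143 and 192 against 89.3 and 75.6 CPM. Higher in control XX were the epithelial list, at 81.9 and 79.03 against 207 and 235 CPM, and the mesonephric tubule list, at 32.6 and 32.1 against 50.2 and 61.2 CPM. Up to 1 marker of the pericyte and of the Leydig list, 3 of the epithelial and 2 of the mesonephric tubule list were at 0. The part of these lists in the result was not tested.

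**Figure D3:**
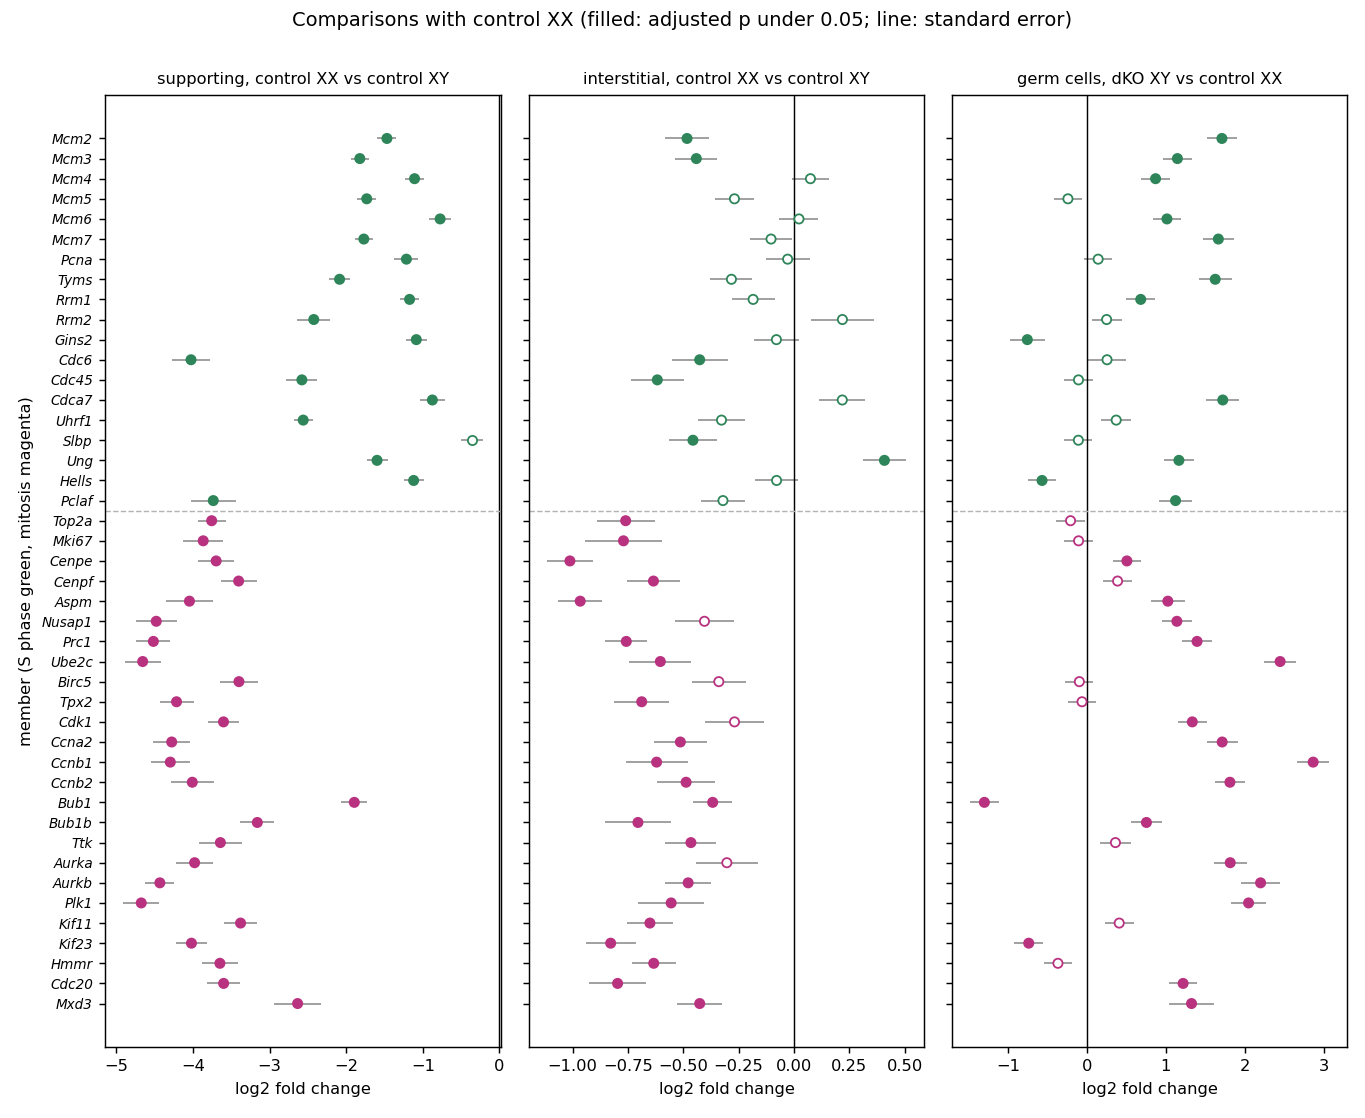
Log2 fold change with its standard error for each member in supporting and interstitial cells (control XX against control XY) and in germ cells (dKO XY against control XX), S phase list in green and mitosis list in magenta, with filled points for an adjusted p under 0.05. In supporting cells every point but that of *Slbp* is filled and below 0, with *Plk1* (−4.67) and *Ube2c* (−4.66) farthest; the horizontal axes differ between panels.

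Supporting cells of dKO XY were then compared with both controls, to see where the cycle genes of these XY cells lie between testis and ovary. Against control XX, 43 of 44 members were higher in dKO XY (21.4% of all genes were called higher and 19.7% lower) and none lower, with medians of 1.17 (S phase) and 3.27 (mitosis), against −0.01 for all genes. *Cdc6* was at 8.24 and 7.16 CPM in dKO XY (log2 fold change 3.21, SE 0.234, adjusted p = 3.15e-06, edgeR quasi-likelihood test) and *Plk1* at 33.8 and 29.5 CPM (log2 fold change 4.11, SE 0.226, adjusted p = 5.4e-07, edgeR quasi-likelihood test), both beyond the control XX libraries given above. The smallest rises were those of *Mcm6* (0.48) and *Gins2* (0.61) on the S phase list and of *Bub1* (1.45) and *Mxd3* (2.11) on the mitosis list. *Slbp* was not called, at 171 and 131 CPM against 143 and 149.8 CPM. The share of cycling supporting cells was 60.3 ± 2.59% in dKO XY (SD, n = 2) against 25.4 ± 6.43% in control XX (odds ratio 4.53, adjusted p = 0.0058, limma on log odds). This call was lost without control XX replicate 1 (adjusted p = 0.0565, limma), when control XX had the 29.96% of replicate 2 alone. Germ cell markers summed to 219.8 and 276 CPM in dKO XY against 98.99 and 136 CPM in control XX supporting cells. Leydig markers were at 199 and 239 against 89.3 and 75.6 CPM and pericyte markers at 33.3 and 35.9 against 13.1 and 16.3 CPM. Interstitial markers were at 639.8 and 609.96 against 477 and 557 CPM. Lower in dKO XY were epithelial markers, at 117.5 and 80.01 against 207 and 235 CPM, and mesonephric tubule markers, at 33.3 and 40.3 against 50.2 and 61.2 CPM. The part of these markers in the result was not tested.

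Against control XY, 16 of 44 members were lower in dKO XY supporting cells and none higher, 8 on each list, where 6.81% of all genes were called lower and 9.75% higher. All 44 log2 fold changes were below 0, whereas 8273 of all 15984 genes tested were above 0. The median was −0.54 against 0.02 for all genes tested. *Cdc6* was at 8.24 and 7.16 CPM in dKO XY against 15.3 and 12.2 CPM in control XY (log2 fold change −0.81, SE 0.205, adjusted p = 0.0223, edgeR quasi-likelihood test), and *Mcm5* at 46.5 and 46.3 against 70.4 and 67.8 CPM (log2 fold change −0.56, SE 0.117, adjusted p = 0.0085, edgeR quasi-likelihood test). All 3 genes of origin loading and firing were lower, *Cdc6*, *Cdc45* (−0.66) and *Gins2* (−0.48), but only 2 of 6 *Mcm* genes, *Mcm5* and *Mcm7* (−0.49). *Kif11*, the motor that separates spindle poles, measured 40.4 and 37.5 CPM in dKO XY against 56.04 and 91.6 CPM in control XY (log2 fold change −0.92, SE 0.196, adjusted p = 0.00946, edgeR quasi-likelihood test). *Aurkb* was at 36.6 and 28.04 against 55.7 and 62.5 CPM (log2 fold change −0.86, SE 0.161, adjusted p = 0.00473, edgeR quasi-likelihood test), and *Kif23* (−0.85), *Ccna2* (−0.71) and *Prc1* (−0.67) fell as well. The control XY libraries differed among themselves in mitosis genes, with *Kif11*, *Prc1* (146 and 234 CPM) and *Mki67* (127 and 229 CPM) higher in replicate 2. Without control XY replicate 2, 2 members were called in place of 16, and without dKO XY replicate 2, 7 were called. Without the cells past the limit for *Sycp3* or *Tcf21*, 26 were called. The number of calls against control XY therefore depended on single libraries, both replicate 2.

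The share of cycling cells, 60.3 ± 2.59% in dKO XY and 72.5 ± 4.69% in control XY supporting cells, did not pass the threshold (odds ratio 0.575, adjusted p = 0.14, limma on log odds), although both dKO XY libraries lay under both control XY libraries. Among other genes of the cycle, 10 of 36 S phase and 12 of 46 mitosis genes were called lower and none higher, with *Brip1* (−0.84), *Mcm10* (−0.71) and *Spc24* (−0.90) among the largest falls. Markers of other cells moved in the same comparison. The 8 granulosa markers summed to 2182 and 2666 CPM in dKO XY against 854 and 819 CPM in control XY, the 10 Sertoli markers to 6510.3 and 4506 against 8383 and 7437 CPM and the 7 germ cell markers to 219.8 and 276 against 101.6 and 28.7 CPM. The 8 interstitial markers were at 639.8 and 609.96 against 957 and 1066 CPM and the 7 pericyte markers at 33.3 and 35.9 against 52.4 and 64.8 CPM. Up to 1 pericyte marker was at 0 and no marker of the other 4 lists, and their part in the result was not tested.

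The study sorted out supporting cells positive for *Sycp3* or *Tcf21* and gives no level for this. Here subclusters, granulosa-like and Sertoli-like ones alike, were made only of supporting cells under the limit given above for both genes. This left out 61 and 107 control XY and 133 and 82 dKO XY cells. Among these subclusters, 2 passed the Sertoli markers and are called Sertoli-like. One of these was itself led by members (*Prc1*, *Ube2c*, *Top2a*) and held 64 of 191 and 166 of 408 Sertoli-like cells in control XY against 177 of 714 and 92 of 456 in dKO XY. In Sertoli-like cells, 68.5% and 76.8% of dKO XY and 71.2% and 78.2% of control XY cells were cycling (odds ratio 0.902, adjusted p = 0.785, limma on log odds), and the ranges overlapped. With a stricter cut of 8 S phase or 5 mitosis UMIs, the shares were 49.7% and 54.8% against 61.3% and 63.97% (difference −10.3 percentage points, adjusted p = 0.0438, limma). Cells with 15 or more mitosis UMIs were 23.7% and 23.7% of dKO XY and 29.8% and 37.5% of control XY Sertoli-like cells. Of the 44 members, 5 were lower in dKO XY Sertoli-like cells (5.99% of all genes) and none higher (8.92% of all genes), and 18 had an unadjusted p under 0.05, as had 3721 of all 13885 genes. The 5 were *Mcm7* (98.7 and 106 against 147 and 139 CPM, log2 fold change −0.52), *Pclaf* (−0.48), *Mcm5* (−0.45), *Cdk1* (176 and 144 against 217 and 243 CPM, log2 fold change −0.57) and *Aurkb* (−0.56). Without dKO XY replicate 1, 10 members were called, and without control XY replicate 1, 17. Of the other cycle genes, 3 of 36 S phase and 2 of 46 mitosis genes were lower, against 5.99% of all genes. The mitotic transcription factor *Foxm1* (−0.89) was among them. Germ cell markers in Sertoli-like cells summed to 339.8 and 433 CPM in dKO XY against 134.5 and 33.97 CPM in control XY, and granulosa markers to 1699 and 1908 against 963 and 967 CPM, with none at 0. Their part in the result was not tested.

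A subcluster with too few passing Sertoli or granulosa markers to be named held 406 and 440 dKO XY cells but only 11 and 27 control XY and 15 and 7 control XX cells. Against the other subclusters, all 6 Leydig markers passed in it, and *Cyp11a1*, an enzyme of steroid synthesis, was among its leading genes. Of the 8 granulosa markers 2 passed. In the clustering of all cells, a cluster of 467 and 485 dKO XY cells that shared the leading gene *Cpa1* was named from 5 of 8 granulosa markers. In the subcluster of 406 and 440 dKO XY cells, 42.1% and 47.7% of these cells were cycling. Those shares lay between the 68.5% and 76.8% of dKO XY Sertoli-like cells and the 18.9% and 19.4% of granulosa-like cells in control XX. Control cells of this subcluster were few. Those of control XY were cycling at 45.5% and 59.3%, those of control XX at 40% and 28.6%. The summed mitosis level of the same subcluster was 790.4 and 1069.6 CPM in dKO XY, against 2449 and 2332 CPM in Sertoli-like cells of the same libraries. These subclusters were made from the same cells, so no test between them is given. The Sertoli-like cells include the subcluster led by the members *Prc1*, *Ube2c* and *Top2a*. Cycling cells may thus have been drawn out of the other subclusters, and the part of this in the shares and sums was not tested.

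Leydig cells, which make androgens, were present in both kinds of XY gonad. Of the 44 members, 38 were higher in dKO XY and none lower, 14 of 19 on the S phase list and 24 of 25 on the mitosis list, where 5.63% of all 14718 genes tested were called higher and 3.18% lower. The median log2 fold change was 0.56 (S phase) and 0.87 (mitosis), against −0.01 for all genes tested. It was above 0 for 43 of 44 members and for 7203 of all 14718 genes. *Pclaf* measured 117 and 112 CPM in dKO XY against 63.95 and 55.8 CPM in control XY (log2 fold change 0.90, SE 0.101, adjusted p = 0.00298, edgeR quasi-likelihood test). *Uhrf1*, which copies DNA methylation, was at 20.3 and 19.9 against 10.4 and 10.8 CPM (log2 fold change 0.90, SE 0.109, adjusted p = 0.00362, edgeR quasi-likelihood test), and *Ung* rose by 0.77 on the log2 scale. The 5 *Mcm* genes called rose by 0.47 (*Mcm2*) to 0.56 (*Mcm4*). Not called were *Slbp* (123 and 103 against 115 and 111 CPM), *Pcna* (36.5 and 31.3 against 30.3 and 28.9 CPM), *Mcm6*, *Cdc45* and *Cdc6* on the S phase list.

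Among mitosis members, *Bub1* measured 18.7 and 22.9 CPM in dKO XY against 11.03 and 8.11 CPM in control XY Leydig cells (log2 fold change 1.09, SE 0.167, adjusted p = 0.00773, edgeR quasi-likelihood test). *Ube2c* was at 137 and 152 against 77.2 and 58.3 CPM (log2 fold change 1.06, SE 0.135, adjusted p = 0.00424, edgeR quasi-likelihood test) and *Plk1* at 15.9 and 21.4 against 9.09 and 8.67 CPM (log2 fold change 1.04). The smallest rises were those of *Kif23* (0.62) and *Aurkb* (0.68), and *Mxd3* was the single mitosis member not called (12.05 and 11.04 against 9.65 and 8.67 CPM). All 4 genes of *Cdk1* and the cyclins, all 6 kinases and all 8 spindle and kinesin genes rose, by 0.80 to 0.94, 0.68 to 1.09 and 0.62 to 1.03 on the log2 scale. Other cycle genes rose too, 26 of 36 S phase and 34 of 46 mitosis genes, none was called lower, and *Clspn* (0.86) and *Kif22* (1.05) were among the largest rises.

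The share of cycling Leydig cells was 38.8 ± 3.78% in dKO XY and 20.5 ± 0.722% in control XY (SD, n = 2; odds ratio 2.45, adjusted p = 0.0361, limma on log odds), higher in both dKO XY libraries. By the mitosis list alone the shares were 26.6% and 30.8% against 14.6% and 12.6%. Cells with 15 or more mitosis UMIs were 11.8% and 12.4% against 6.89% and 5.57%, and cells with none 38.6% and 34.4% against 57.1% and 51.3%, and the libraries of the groups overlapped for neither. The call for the share was lost without control XY replicate 1 (adjusted p = 0.226, limma), control XY replicate 2 (0.279), control XX replicate 1 (0.0565) or control XX replicate 2 (0.0550), at differences of 17.8 to 18.8 percentage points, and with the replicate number as a block (0.0578). Control XX has no Leydig cells in this test. Its libraries enter the p only through the spread shared between cell types and through the adjustment. Other markers moved with the result. In dKO XY Leydig cells the 7 germ cell markers summed to 27.3 and 37.8 CPM against 6.16 and 6.80 CPM, the 7 erythroid markers to 197 and 118 against 14.2 and 25.4 CPM and the 8 granulosa markers to 310.1 and 413 against 139.7 and 141 CPM. The 6 Leydig markers themselves were at 24015 and 21913 CPM in dKO XY against 37959.7 and 35974 CPM in control XY. No marker of these lists was at 0, and their part in the result was not tested.

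**Figure D4:**
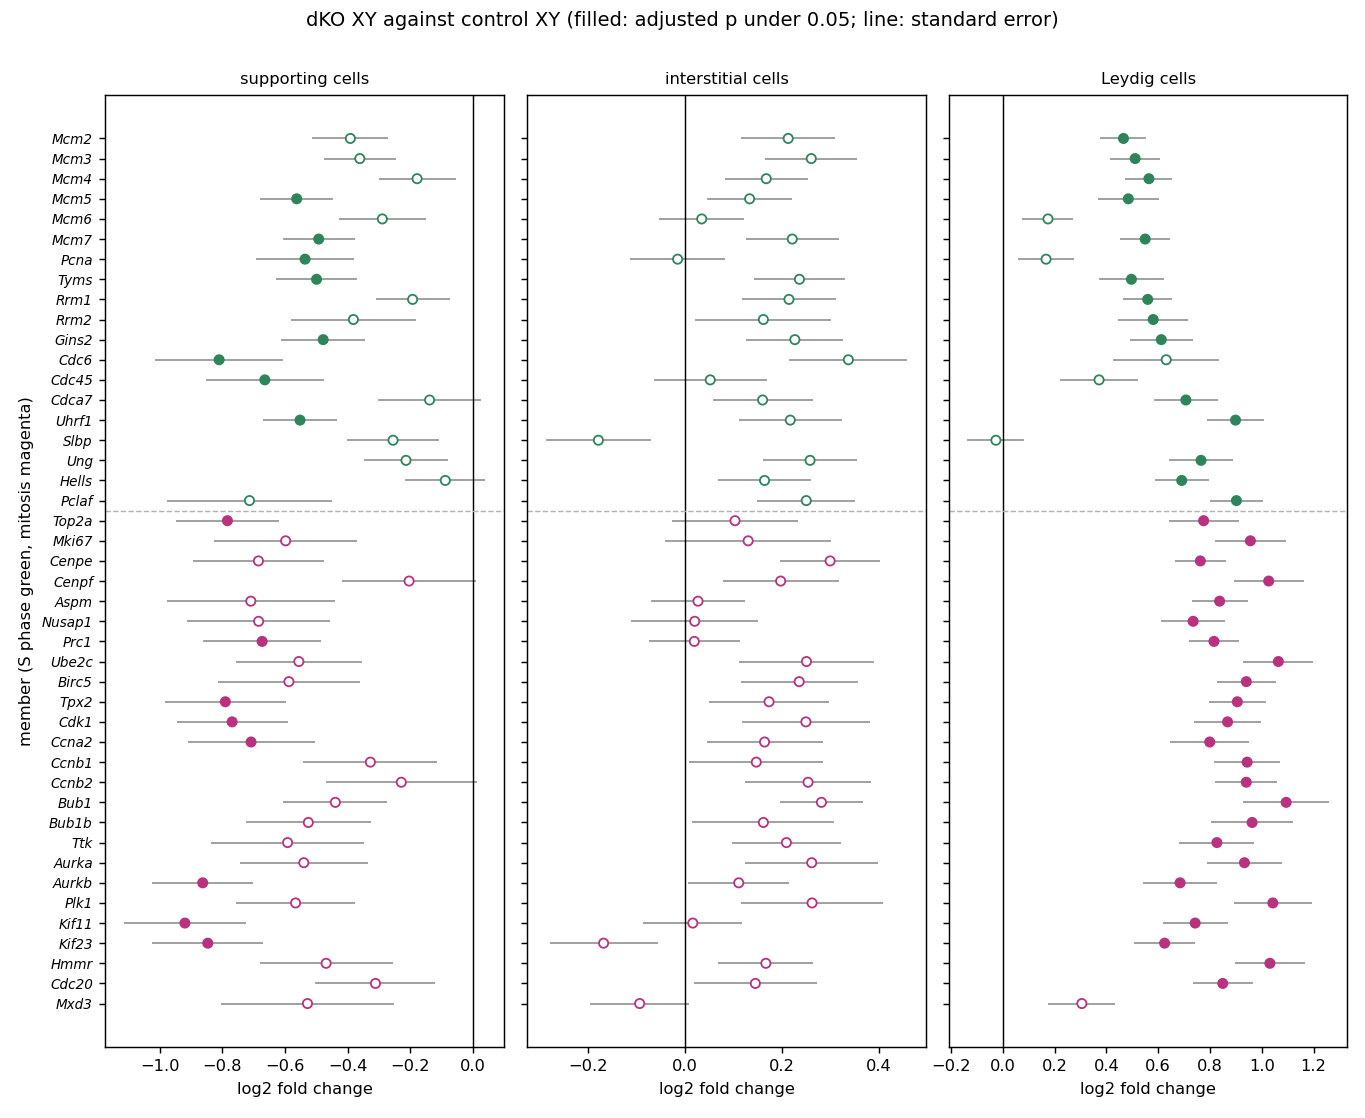
Log2 fold change of dKO XY against control XY with its standard error for each member in supporting, interstitial and Leydig cells, S phase list in green and mitosis list in magenta, with filled points for an adjusted p under 0.05. All points lie below 0 in supporting cells (16 filled), none is filled in interstitial cells, and 38 are filled above 0 in Leydig cells; the horizontal axes differ between panels.

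In interstitial cells, which surround the testis cords and form the stroma of the ovary, the share of cycling cells was higher in dKO XY while no single member passed its test. In dKO XY 77.2 ± 4.97% of interstitial cells were cycling against 60.5 ± 1.99% in control XY (SD, n = 2; odds ratio 2.24, adjusted p = 0.0381, limma on log odds), higher in both dKO XY libraries. No member was called between these groups, where 3.58% of all 16807 genes were called higher and 2.42% lower. At an unadjusted p under 0.05 there were 7, against 3301 of all 16807 genes, and DESeq2 called 1. Of the 44 log2 fold changes, 40 were above 0, with a median of 0.17 against −0.01 for all genes. *Cdc6*, with the largest estimate of the S phase list, measured 16.8 and 17.2 CPM in dKO XY against 12.7 and 14.2 CPM in control XY (log2 fold change 0.34, SE 0.122, adjusted p = 0.172, edgeR quasi-likelihood test). *Cenpe*, a kinetochore motor, was at 199 and 237 against 179.8 and 173 CPM (log2 fold change 0.30, SE 0.103, adjusted p = 0.153, edgeR quasi-likelihood test). Both dKO XY libraries were higher for these 2 genes, but neither passed the test. The call for the share was lost without either control XY library, without dKO XY replicate 2 and without either control XX library, at differences of 13.2 to 18.2 percentage points. It was also lost in settings that kept all libraries of the 2 groups. Adjusted p was 0.0522 with the mitosis list alone, 0.0726 with only the 2 groups fitted and 0.0686 with a block of replicate numbers, those of control XX crossed (limma).

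One cluster of interstitial cells was led by *Cenpe*, *Mki67* and *Top2a* and held 31.2% and 38.9% of interstitial cells in dKO XY, 27.6% and 29.9% in control XY and 1 cell in control XX. Outside that cluster, 61.8% and 68.5% of the cells were past the cut in dKO XY against 43.4% and 45.7% in control XY. The share was higher in both dKO XY libraries there too. Cells with no mitosis UMI were 16.4% and 10.98% in dKO XY against 28.3% and 23.3% in control XY, and cells with 15 or more 28.8% and 34.9% against 23.5% and 24.5%. The 7 germ cell markers summed to 33.7 and 42.5 CPM in dKO XY interstitial cells against 5.21 and 5.45 CPM in control XY, and the 7 erythroid markers to 140.5 and 178 against 18.3 and 35.05 CPM. The 8 granulosa markers were at 139.96 and 175 against 40.2 and 56.1 CPM and the 8 interstitial markers themselves at 4299 and 4515 against 5941 and 5653 CPM, and the part of these lists was not tested. Germ and erythroid cells held the members at high levels, and the part of their RNA in the shares of dKO XY was not tested.

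Between control XX and control XY interstitial cells, 26 of 44 members were lower in control XX and 1 was higher. Of all 16807 genes 25.1% were called, 2036 higher and 2185 lower. Of the mitosis list 21 of 25 were lower (median log2 fold change −0.62) and of the S phase list 5 of 19 (median −0.18, against −0.00116 for all genes). *Cenpe* was at 179.8 and 173 CPM in control XY against 83.9 and 83.4 CPM in control XX (log2 fold change −1.01, SE 0.104, adjusted p = 0.000265, edgeR quasi-likelihood test), and *Aspm*, a spindle pole protein, at 81.98 and 84.8 against 41.8 and 39.9 CPM (log2 fold change −0.97, SE 0.0985, adjusted p = 0.000249, edgeR quasi-likelihood test). Among called mitosis members, *Bub1* (−0.37) and *Mxd3* (−0.43) had the smallest falls. Of the S phase list, *Cdc45* (20.5 and 21.4 against 12.1 and 13.9 CPM, log2 fold change −0.62, SE 0.119, adjusted p = 0.00652, edgeR quasi-likelihood test), *Mcm2* (−0.48), *Slbp* (−0.46), *Mcm3* (−0.44) and *Cdc6* (−0.43) fell. *Ung*, the uracil glycosylase, went the other way, at 22.8 and 24.3 CPM in control XY against 29.8 and 29.9 CPM in control XX (log2 fold change 0.41, SE 0.0983, adjusted p = 0.018, edgeR quasi-likelihood test). With either control XY library left out (replicate 1 or replicate 2), 15 members were called in place of 27. Among other cycle genes, 14 of 36 S phase and 41 of 46 mitosis genes were lower and none higher, *Atad2* (−0.75) and *Nek2* (−0.76) among them. The share of cycling cells was 47.4% and 50.7% in control XX and did not pass the threshold against control XY (odds ratio 0.629, adjusted p = 0.145, limma on log odds), but it did at the stricter cut (difference −11.7 percentage points, adjusted p = 0.0404, limma). Nearly all control XX interstitial cells were in a cluster led by *Crabp1* and *Tgfbi*, while most XY cells were in 2 others, one led by *Sostdc1* and *Cxcl12* and the other by the cycling genes named above. Granulosa markers summed to 366 and 215 CPM in control XX interstitial cells against 40.2 and 56.1 CPM in control XY. Sertoli markers were at 26.4 and 19.5 against 123 and 219 CPM and Leydig markers at 5.86 and 4.40 against 165 and 171 CPM, with up to 1 Sertoli marker at 0. The part of these markers in the result was not tested.

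Against control XX, dKO XY interstitial cells had 35 members higher and none lower (14.0% of all genes were called higher and 12.4% lower), 10 of 19 S phase and all 25 mitosis members, with medians of 0.32 and 0.77 against −0.00234 for all genes. *Cenpe* rose by 1.31 and *Cdc6* by 0.76 on the log2 scale, and the smallest called rises were those of *Mxd3* (0.33) and *Mcm7* (0.32). *Pcna*, the clamp of the replication fork, was at 57.7 and 60.3 CPM in dKO XY against 53.9 and 57.4 CPM in control XX and was not called. The share of cycling cells differed by 28.2 percentage points (odds ratio 3.56, adjusted p = 0.00612, limma on log odds), but the call was lost without control XX replicate 1 (adjusted p = 0.0565) and without control XX replicate 2 (adjusted p = 0.0510, limma). Leydig markers in these interstitial cells were at 222 and 193 CPM in dKO XY against 5.86 and 4.40 CPM in control XX, Sertoli markers at 175 and 187 against 26.4 and 19.5 CPM. Germ cell markers were at 33.7 and 42.5 against 21.3 and 10.52 CPM. Erythroid markers were at 140.5 and 178 against 38.4 and 96.2 CPM. Their part in the result was not tested. The comparisons of dKO XY with each control and of the controls with each other share libraries, so their values are given side by side only.

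Endothelial cells of dKO XY and control XY did not differ in any member at an adjusted p under 0.05 (0.531% of all genes were called), with 2 members at an unadjusted p under 0.05 (1051 of all 12059 genes) and none called by DESeq2. Their shares of cycling cells were 72.3% and 65.04% in dKO XY against 62.2% and 74.5% in control XY (odds ratio 1.01, adjusted p = 0.9849, limma on log odds). In control XX endothelial cells, 12 mitosis members were lower than in control XY and none was higher (3.09% of all genes were called lower and 1.63% higher), while no S phase member was called. *Plk1* was at 13.9 and 20.01 CPM in control XX against 41.8 and 39.1 CPM in control XY (log2 fold change −1.23, SE 0.189, adjusted p = 0.00317, edgeR quasi-likelihood test), and *Aspm* at 19.8 and 20.2 against 52.96 and 42.2 CPM (log2 fold change −1.19, SE 0.163, adjusted p = 0.00147, edgeR quasi-likelihood test). Called with the smallest falls were *Cenpe* (−0.65) and *Cenpf* (−0.66), and 7 of the 12 were spindle and kinesin genes. Leaving out single libraries gave 5 (control XY replicate 1), 3 (control XY replicate 2), 4 (control XX replicate 1) and 19 calls (control XX replicate 2). The share was 42.8% and 52.99% in control XX, lower than in control XY by 20.5 percentage points (odds ratio 0.422, adjusted p = 0.0551, limma on log odds), and it passed at the stricter cut (adjusted p = 0.0230, limma). Other cycle genes called lower were 2 of 36 and 5 of 46, *Mcm10* (−1.12) and *Cdca2* (−0.87) among them. Leydig markers in these endothelial cells summed to 3.87 and 3.33 CPM in control XX, where up to 4 of 6 were at 0, against 386 and 501 CPM in control XY. Interstitial markers were at 251 and 339.7 against 531 and 688 CPM and granulosa markers at 209.9 and 164 against 59.6 and 67.7 CPM, and the part of these markers in the result was not tested.

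In pericytes, the mural cells of small vessels, the called members were higher in control XX. Of the 44 members, 8 were higher in control XX than in control XY and none lower (2.95% of all genes were called higher and 5.03% lower), 2 S phase and 6 mitosis members. *Ung* was at 26.8 and 24.9 CPM against 17.3 and 14.00 CPM (log2 fold change 0.78, SE 0.214, adjusted p = 0.0366, edgeR quasi-likelihood test) and *Pclaf* at 438 and 527 against 367 and 312 CPM (log2 fold change 0.56, SE 0.155, adjusted p = 0.0377, edgeR quasi-likelihood test). *Aurka*, a spindle pole kinase, measured 46.1 and 48.1 against 23.9 and 31.7 CPM (log2 fold change 0.81, SE 0.217, adjusted p = 0.0327, edgeR quasi-likelihood test), and *Cdk1* rose by 0.73, *Prc1* by 0.61 and *Birc5* by 0.50 on the log2 scale. These calls came from 51 and 121 control XX cells, and 0, 3, 5 and 1 members were called without control XY replicate 1, control XY replicate 2, control XX replicate 1 and control XX replicate 2, and 1 with the replicate number as a block. Shares of cycling pericytes were 68.6% and 62.8% in control XX against 55.1% and 60.3% in control XY (odds ratio 1.40, adjusted p = 0.235, limma on log odds). In dKO XY pericytes they were 68.4% and 65.3% (odds ratio 1.48, adjusted p = 0.182, limma on log odds), and no member was called (0.285% of all genes), with 6 at an unadjusted p under 0.05 (719 of all 11919 genes) and none by DESeq2. Of the other cycle genes, 3 of 36 S phase and 7 of 46 mitosis genes were higher in control XX pericytes, against 2.95% of all genes. *Rpa2* (0.76) and *Ncaph* (0.77) were among them. Germ cell markers summed to 20.1 and 12.8 CPM in control XX pericytes and 9.31 and 4.83 CPM in control XY, and erythroid markers to 29.4 and 76.2 and 33.2 and 31.2 CPM. Leydig markers were at 4.19 and 2.14 CPM in control XX, where up to 5 of 6 were at 0, against 166 and 172 CPM in control XY, and Sertoli markers at 13.4 and 17.5 against 120.1 and 223 CPM, with up to 8 of 10 at 0. Interstitial markers summed to 1499 and 1593 against 2537 and 2653 CPM and endothelial markers to 271 and 219 against 144 and 142 CPM. The part of these markers in the result was not tested.

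Immune cells gave no called member between dKO XY and control XY (0.0177% of all genes were called), with 2 at an unadjusted p under 0.05 (800 of all 11291 genes) and none by DESeq2. Their shares of cycling cells were 67.9% and 65.7% against 51.05% and 58.3% (odds ratio 1.66, adjusted p = 0.14, limma on log odds). At the stricter cut the difference was 9.54 percentage points (adjusted p = 0.0301, limma). Germ cell markers in immune cells summed to 130.4 and 129 CPM in dKO XY against 5.34 and 6.53 CPM in control XY, and their part in the result was not tested. Epithelial cells were not tested between groups. Their shares were 79.8% and 95.5% in dKO XY, 66.7% and 71.1% in control XY, from 30 and 38 cells, and 62.6% and 68.4% in control XX.

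Germ cells could be compared between dKO XY (415 and 281 cells) and control XX (260 and 229 cells). The share past the cut was 99.3% and 100% in dKO XY against 99.2% and 99.1% in control XX (odds ratio 2.66, adjusted p = 0.145, limma on log odds). At the stricter cut the direction turned, and the difference of −1.45 percentage points passed the threshold (adjusted p = 0.0225, limma). Of the 44 members, 25 were higher in dKO XY and 4 lower, where 49.9% of all 14693 genes were called, 3675 higher and 3658 lower. The median log2 fold change was 0.68 (S phase) and 1.02 (mitosis), against 0.02 for all genes tested. *Ccnb1*, the cyclin of mitotic entry, was at 169 and 176 CPM in dKO XY against 31.7 and 17.7 CPM in control XX (log2 fold change 2.87, SE 0.207, adjusted p = 1.31e-17, edgeR quasi-likelihood test), and *Ube2c* at 447 and 390.1 against 101 and 60.3 CPM (log2 fold change 2.45, SE 0.199, adjusted p = 1.21e-15, edgeR quasi-likelihood test). *Aurkb* rose by 2.20, and all 4 genes of *Cdk1* and the cyclins rose. On the S phase list the largest rises were those of *Cdca7* (45.9 and 46.9 against 15.4 and 14.1 CPM, log2 fold change 1.72, SE 0.206, adjusted p = 4.57e-10, edgeR quasi-likelihood test), *Mcm2* (1.71) and *Mcm7* (1.66), with 5 of 6 *Mcm* genes higher. The smallest called rises were *Cenpe* (0.51) and *Rrm1* (0.68).

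The 4 members lower in dKO XY germ cells were *Bub1*, *Kif23*, *Gins2* and *Hells*. *Bub1*, a checkpoint kinase that also acts at meiotic centromeres, measured 116 and 145 CPM in dKO XY against 322 and 349.6 CPM in control XX (log2 fold change −1.30, SE 0.182, adjusted p = 2.43e-08, edgeR quasi-likelihood test). *Hells* was at 584 and 758 against 1014 and 1065 CPM (log2 fold change −0.57, SE 0.18, adjusted p = 0.00676, edgeR quasi-likelihood test), *Kif23* at 66.1 and 88.01 against 148 and 121 CPM (log2 fold change −0.74) and *Gins2* at 16.1 and 13.1 against 24.6 and 27.3 CPM (log2 fold change −0.76). The libraries of the groups did not overlap for these 4, but the share of all genes for which this holds was not counted. *Top2a* (394 and 559 against 606 and 544 CPM) and *Mki67* (133 and 217 against 222 and 173 CPM) were not called, and their libraries overlapped. Other cycle genes were also split, with 12 higher and 7 lower of 36 S phase genes and 27 higher and 6 lower of 46 mitosis genes, from *Ccne2* (−2.76) and *Gins3* (−1.67) to *G2e3* (1.99). Leydig markers summed to 416 and 224 CPM in dKO XY germ cells against 7.52 and 7.44 CPM in control XX, where up to 3 of the 6 markers were at 0, and Sertoli markers to 202 and 271 against 56.6 and 41.2 CPM. The part of RNA from other cells in the result was not tested.

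The sums of the 2 lists show their balance in each cell type. In supporting cells, the members of the S phase list summed to 1557 and 1476 CPM in control XY, 1194 and 1123 CPM in dKO XY against 593 and 612 CPM in control XX. Those of the mitosis list summed to 2194 and 3210.3 CPM, 1825 and 1725 CPM and 172 and 230.02 CPM in the same order. The mitosis sum was 1.41 and 2.17 times the S phase sum in control XY and 0.29 and 0.376 times in control XX. On the S phase list, *Slbp*, *Mcm6* and *Cdca7* had the smallest log2 fold changes between these groups. In Leydig cells, the S phase sums were 593 and 537 CPM in control XY against 817 and 767 CPM in dKO XY, and the mitosis sums 725 and 619 against 1173 and 1360.01 CPM. In interstitial cells, the mitosis sums were 3169 and 3723 CPM in dKO XY against 3109 and 3071 CPM in control XY. In the interstitial cluster led by *Cenpe*, *Mki67* and *Top2a* they were lower in dKO XY, at 6709 and 6280 against 7528 and 6961 CPM. In the cluster led by *Sostdc1* they were higher, at 473 and 620 against 267 and 311 CPM. Germ cells had mitosis sums of 3489 and 4059 CPM in dKO XY against 3053 and 2765 CPM in control XX, and pericytes of control XX had 3732 and 3598 CPM.

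**Figure D5:**
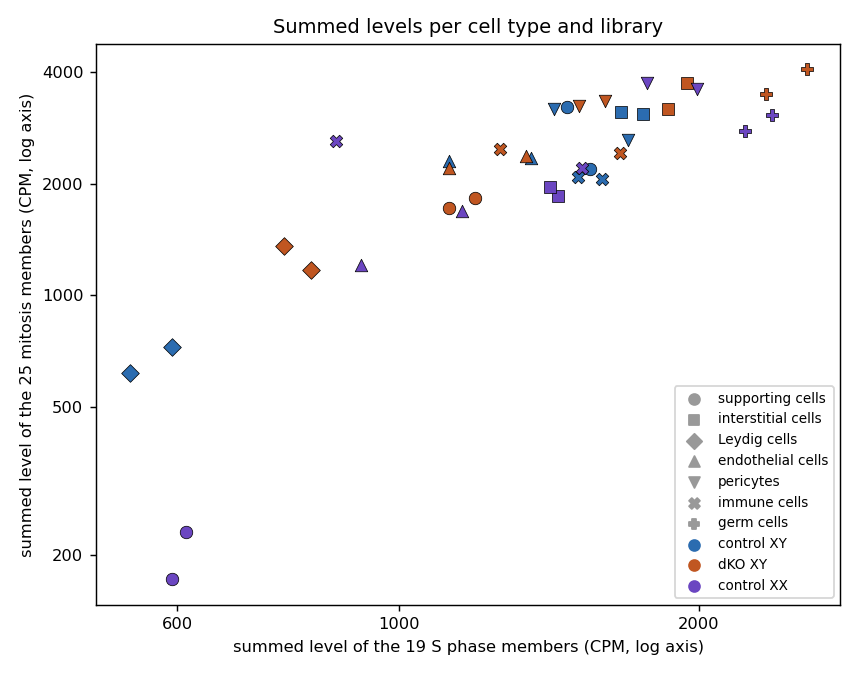
Summed CPM of the 19 S phase members (horizontal) and of the 25 mitosis members (vertical), both on log axes, for each cell type (shape) and library of each group (colour). Control XX supporting cells lie lowest on the vertical axis, with mitosis sums of 172 and 230.02 CPM, and Leydig cells of dKO XY (1173 and 1360.01 CPM) lie above those of control XY (725 and 619 CPM).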

How the data were processed

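Gene by cell UMI counts from 10x libraries were deposited by the authors, who used Cell Ranger and the mm10 genome and corrected for swapped barcodes. Counts entered as deposited. Kept cells had over 2500 but under 9000 genes, under 25% mitochondrial and under 20% Hbb UMIs. They were clustered with Seurat 5.3.0 (3000 variable genes without 87 cell cycle genes, 20 dimensions, resolution 0.21) and named where at least 3 markers passed. Automatic doublet calling (scanpy 1.11.5) marked 0 to 71 cells per library, so no doublets were removed in the main analysis, and leaving out the 8% with the highest scores was an alternative. Counts were summed per cell type and library, with low genes filtered, and tested across all genes with edgeR 4.0.16 (quasi-likelihood, TMM, R 4.3.3), with Benjamini-Hochberg adjustment. Shares were tested on log odds (pseudocount 0.5) with limma 3.58.1, adjusted over 14 comparisons. The cell types were fitted together, and their estimates of the spread were drawn towards a common value. Sertoli-like cells entered this fit beside the supporting cells that hold them. DESeq2 1.42.0 was an alternative. The statistics were tested on simulated data with a set spread. There the gene test recovered 4% to 8% of genes changed 1.5 times and 47% to 61% of genes changed 2 times. A gene that was not called may therefore still differ. Figures were drawn with matplotlib 3.10.9. Named members were those called with the largest and smallest fold changes of each list, and members and lists were chosen with earlier results of these data known.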

Additional observations from a re-analysis of the deposited data

Results flagged for a closer look

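4 differences between cell types in the effect on the share of cycling cells passed a test of the difference itself (limma on log odds, Benjamini-Hochberg over 4). They were picked after the shares had been seen. Between dKO XY and control XY, the effect in interstitial cells exceeded that in supporting cells by 1.36 log odds (SE 0.257, adjusted p = 0.00149), the share being higher in both dKO XY libraries in interstitial cells and lower in both in supporting cells. The effect in Leydig cells exceeded that in Sertoli-like cells by 0.999 log odds (adjusted p = 0.00467, limma). Between control XX and control XY, the effect in interstitial cells was 1.60 log odds above that in supporting cells (adjusted p = 0.00102, limma), the share in supporting cells being called lower in control XX and that in interstitial cells not called. The effect in pericytes was 1.20 log odds above that in endothelial cells (adjusted p = 0.00219, limma), from as few as 51 pericytes in a library. All pairs of types come from the same libraries, and some pairs use the same control XY values. The 4 tests also share a common estimate of the spread, so they are not independent, and the adjustment covers only the 4 picked pairs.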

How the results depend on the processing

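Of the alternatives run on counts of called members, 178 left the count within 1.5 times and 35 moved it. Of those run on shares, 204 kept direction and side of the threshold, 19 lost a call, 16 gained one and 16 reversed. Of those run on single named members, 1353 kept both, 166 lost a call, 22 gained one and 7 reversed. The median of all genes moved by less than 0.1 (log2) with the scaling. Counts of 16 (supporting, dKO XY against control XY) became 28 with no filter on low counts and 26 without cells past the limit for *Sycp3* or *Tcf21*. In Sertoli-like cells 5 became 8 (DESeq2), 3 (total UMIs), 16 (no filter), 16 (no doublets), 3 (1500 genes per cell) and 2 (all variable genes). In interstitial cells 0 became 1 with DESeq2 (dKO XY against control XY). In endothelial cells of control XX 12 became 20 (no filter) and 19 (no doublets), and in pericytes 8 became 5 (DESeq2), 4 (total UMIs), 2 (no doublets), 3 (1500 genes) and 5 (all variable genes). Leaving out 1 library gave 2 to 22 (supporting), 4 to 17 (Sertoli-like), 15 to 29 (interstitial, control XX), 3 to 19 (endothelial) and 0 to 7 (pericytes) calls. For shares, in percentage points, the cut of 3 S phase or 2 mitosis UMIs gave 16.9 in Leydig cells (call lost) and −1.19 in endothelial cells of dKO XY (reversed). The cut of 8 or 5 gave −10.3 (Sertoli-like), −11.7 (interstitial, control XX), −20.3 (endothelial, control XX), 11.4 (pericytes, control XX) and 9.54 (immune), all gained, −0.243 (endothelial, dKO XY), reversed, and −1.45 (germ), which reversed and passed the threshold (adjusted p = 0.0225, limma). The mitosis list alone gave −0.0644 (endothelial, dKO XY) and −0.498 (germ), reversed, −0.0196 (Sertoli-like), reversed only on the log odds scale of the fit, and 17.1 (interstitial, dKO XY), lost. Thinning to 10000 UMIs gave −16.1 (supporting, dKO XY) and 0.578 (germ), gained, and −0.00494 (endothelial, dKO XY), reversed. No thinning gave 0.0450 (supporting), 0.782 (Sertoli-like) and −0.639 (endothelial), reversed for dKO XY, 2.74 (Leydig), lost, and −7.95 (endothelial, control XX), gained. Without doublets, −15.3 was gained (supporting, dKO XY). With 1500 genes per cell, −22.3 (endothelial, control XX) and 0.343 (germ) were gained and −0.352 (endothelial, dKO XY) reversed, and 0.146 with all variable genes (endothelial, dKO XY) reversed only on the log odds scale. The arcsine scale and the fit of only 2 groups gained −20.5 (endothelial, control XX), and the latter lost 16.8 (interstitial, dKO XY). Leaving out 1 library gave 13.2 to 20.3 (interstitial, dKO XY), 15.6 to 20.9 (Leydig), −6.21 to 2.06 (Sertoli-like), −5.83 to 6.41 and −26.6 to −14.4 (endothelial, dKO XY and control XX), 0.0984 to 0.821 (germ), 30.4 to 39.5 (supporting) and 24.7 to 31.7 (interstitial, dKO XY against control XX). Single fold changes that reversed were not called: *Slbp* in Leydig cells was 0.000418 (total UMIs) and 0.0273 (no doublets), and −0.189 to 0.111 with 1 library left out, as *Slbp* in supporting cells against control XX was −0.088 to 0.271, *Top2a* in germ cells −0.451 to 3.61e−05 and *Mki67* there −0.47 to 0.185. The causes were not tested.

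Same-numbered libraries correlated between 0.0858 and 0.272 (control XY and dKO XY) but between −0.527 and −0.0107 (both controls), and the numbers were not taken to pair the libraries. With the replicate number as a block, calls went to 9 (Sertoli-like) and 1 (pericytes), and the share in Leydig cells, 18.3 percentage points, lost its call (adjusted p = 0.0578, limma), while no other call for a share was lost and no other count moved by over 1.5 times. A block with the control XX numbers crossed, added after seeing the data, gave 9 calls in Sertoli-like cells, 1 in interstitial cells (dKO XY against control XY) and 14 in pericytes, and lost the calls for the 16.8 and 18.3 percentage points in interstitial and Leydig cells.

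With 2 libraries per group, a lone library left in a group is assumed to vary like the others, and types with few cells (pericytes, endothelial, immune) limit the precision.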
